A study of Mus musculus with 8 samples.

Results

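The comparison set out here is that of Gcnf-deficient with wt primordial germ cells (PGCs) formed in culture and sorted on day 15 of differentiation, which is 2 of the 8 samples of the series. The members are the 1 array of Gcnf-deficient day-15 PGCs and the 1 array of wt day-15 PGCs, chosen by genotype and day. Both came from embryonic stem cell (ESC) lines labelled C57BL/6 that carried the reporter Oct4-GFP(ΔPE), a green fluorescent protein driven by an Oct4 promoter without its proximal enhancer. The Gcnf-deficient cells had both alleles of Gcnf deleted and the wt cells had both intact. The cells were plated on gelatin without feeder cells or leukemia inhibitory factor (LIF), and GFP-positive cells were sorted, so each array measured a pool of sorted cells. The other samples were Gcnf-deficient and wt PGCs sorted on day 12, Gcnf-deficient and wt ESCs, each on 1 array, and 2 arrays of epiblast stem cells (EpiSCs). The methods name male and female wt ESC lines and female Gcnf-deficient lines, but which line gave which array was not stated, so genotype and line cannot be told apart. With 1 array a side, every difference below is a size without a test, and no p-value was computed.

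PGCs are the embryonic founders of sperm and eggs. They keep pluripotency factors such as Oct4 and Nanog, and once they reach the gonad they switch on germ cell genes, among them the RNA-binding protein gene Dazl, the genes of the PIWI-interacting RNA (piRNA) pathway that silence transposons, and, with retinoic acid, the meiosis gatekeeper Stra8. Germ cell nuclear factor (GCNF, the product of Nr6a1) is an orphan nuclear receptor that binds direct repeats of a hexamer in DNA and acts mostly as a repressor, with the pluripotency gene Pou5f1 as its best-known target.

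Values are normalized signals on the log2 scale, where 1 unit is 2-fold, and a probe was called detected on an array at a detection p under 0.01. Of 25697 probes, 10654 (41.5%) were detected on the Gcnf-deficient day-15 array and 11273 (43.9%) on its wt counterpart. The counts on the 8 arrays began at 9939, and that of the wt day-15 array was the highest. Both day-15 arrays shared 10061 detected probes, 593 were detected on the Gcnf-deficient array only and 1212 on the wt array only, so 11866 probes entered the comparison. Among probes detected on both arrays, the day-15 pair correlated at r = 0.919 across probes and the EpiSC pair at r = 0.991. The standard deviation of the differences was 0.81 in log2 for the day-15 pair, 0.52 for the day-12 pair, 0.68 for the ESC pair and 0.26 for the EpiSC pair, which stands as the yardstick of spread between arrays of 1 condition. The methods name biological or technical duplicates without saying which the EpiSC arrays are, so this yardstick may cover technical spread only. The Nr6a1 probe gave 10.05 in Gcnf-deficient and 9.83 in wt day-15 PGCs, but its place relative to the deleted part of the gene was not stated, and it is no check of genotype. As for the label of PGC, Pou5f1, Nanog, Dppa3, Tfap2c and Dazl were detected on both arrays, while Prdm1 was on neither. The sort was on an Oct4 reporter, and Pou5f1, Dppa3, Tfap2c and Dazl were also detected on both ESC arrays. Their detection therefore does not separate PGCs from the starting ESCs.

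Of the 11866 probes, 343 (2.89%) were over 4-fold higher in Gcnf-deficient day-15 PGCs, relative to wt, and 192 (1.62%) were over 4-fold lower. Over 2-fold, 1563 (13.2%) were higher and 1456 (12.3%) lower. Between the EpiSC arrays 10 of 10482 probes (0.0954%) lay over 4-fold apart and 198 (1.89%) over 2-fold. On day 12 the genotypes differed over 2-fold at 554 probes higher (5.12%) and 568 lower (5.25%) of 10828, and in ESCs at 1182 higher (10.4%) and 1016 lower (8.93%) of 11374. The day-15 pair thus held the highest share over 2-fold of these 4 pairs. At the 4-fold limit the ESC pair held more, with 562 of 11374 probes apart either way against 535 of 11866 on day 15. The day-12 pair had 188 of 10828. The spread of the day-15 pair was wider than that of the EpiSC pair at all levels of signal. For probes with a mean signal from 9 to 11, it was 0.80 in the day-15 pair and 0.19 in the EpiSC pair.

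**Figure D1:**
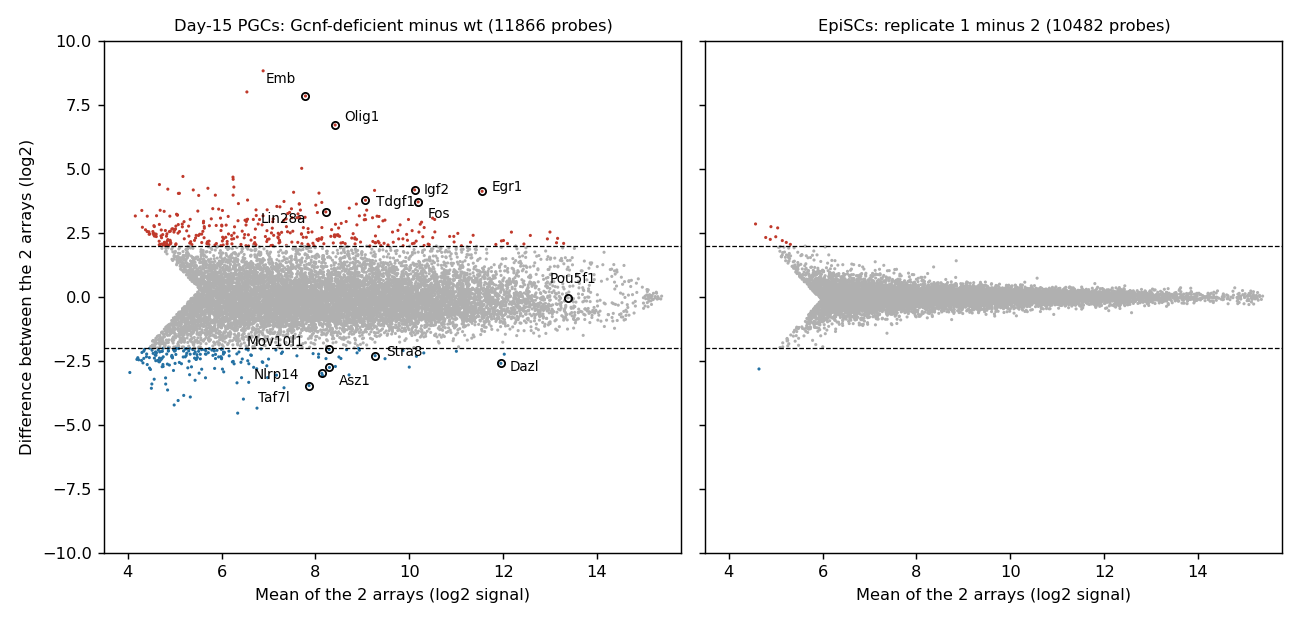
Difference between Gcnf-deficient and wt day-15 PGCs (log2, vertical axis) against the mean signal of both arrays (log2, horizontal axis), 1 point per probe detected on at least 1 of the arrays, beside the same plot for the EpiSC pair. The day-15 cloud is wider than the EpiSC cloud at every level, with 343 probes over 4-fold higher and 192 over 4-fold lower.

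The day-15 arrays did not contribute evenly to these differences. Among the 343 probes over 4-fold higher, the wt day-15 array lay over 2-fold beyond each of the other 5 ESC and PGC arrays at 162, and the Gcnf-deficient day-15 array at 21. Among the 192 lower probes these counts were 84 and 13. The wt day-15 array therefore stood apart from the rest of the series more often than the Gcnf-deficient one. For that reason, gene groups below are also given against the wt day-12 array, a comparison added after these values were seen, which differs in day as well as genotype.

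Counted by gene, with the brightest probe for each, 8134 genes were measured on at least 1 of the day-15 arrays. Where a gene was undetected on the dimmer side, its fold was taken from the lowest signal detected on that array and is a lower limit, written "at least". By this count 169 genes (2.08%) were over 4-fold higher and 39 (0.479%) over 4-fold lower in Gcnf-deficient PGCs, and 936 (11.5%) and 659 (8.1%) over 2-fold. The median difference of the 8134 genes was -0.08. Against the wt day-12 array, 354 of 7764 genes (4.56%) were over 2-fold higher in Gcnf-deficient day-15 PGCs and 339 (4.37%) over 2-fold lower. The counts of a gene list below can be read against these percentages, which take no account of gene length. Among genes detected on both day-15 arrays, 31.8% of the shortest by genomic span were over 2-fold higher and 2.70% lower. Among the longest these shares were 5.54% and 12.2% (10 groups, described below). For a list of short genes, 11.5% is thus too low a yardstick on the higher side. No share matched for span is given for the lists.

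Among the lists, germ cell regulators had the highest share of measured members over 2-fold lower. This list was written with earlier results of these data known and holds Dazl and Taf7l, markers chosen for this comparison beforehand. Its share is therefore a description and no independent support. Its measured members were detected at 19 on the wt array and 16 on the Gcnf-deficient array, and 7 were over 2-fold lower with detection on both. Of 30 germ cell regulators, 25 had a probe and 19 were measured, of which 9 were over 2-fold lower and 1 over 2-fold higher in Gcnf-deficient day-15 PGCs, with a median difference of -0.86. In sorted pools such as these, fewer cells of a type and less RNA per cell cannot be told apart. Against the wt day-12 array 7 of 18 were over 2-fold lower and 0 higher. Summed over the 25 genes with a probe, the linear signal was 23805 in Gcnf-deficient and 42333 in wt PGCs on day 15, and 22296 and 40165 on day 12.

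Dazl, which encodes an RNA-binding protein that lets PGCs acquire germ cell competence, gave 10.66 in Gcnf-deficient and 13.25 in wt day-15 PGCs, 6.02-fold lower. It was lower at the earlier stages too, with 9.25 in Gcnf-deficient and 10.64 in wt ESCs, and 9.59 and 12.42 on day 12. Taf7l, a germ cell paralog of a subunit of the general transcription factor TFIID, was the most reduced gene with a measured fold, with 6.13 against 9.59, a difference of -3.46. Its signals were 5.87 and 8.13 in ESCs, and on day 12 it was undetected in Gcnf-deficient PGCs and at 7.73 in wt PGCs. For Taf7l all 3 Gcnf-deficient arrays lay below all 3 wt arrays, and for Dazl the groups touched, since Gcnf-deficient day-15 PGCs matched wt ESCs. Mageb4, an X-linked gene of the melanoma antigen family, was undetected in Gcnf-deficient day-15 PGCs and at 8.70 in wt (at least 8.13-fold), and undetected on both day-12 arrays. Of the X-linked homeobox genes, Rhox6 was undetected in Gcnf-deficient PGCs and at 7.43 in wt (at least 3.37-fold), Rhox9 gave 7.74 against 9.38 (3.10-fold), and Rhox5 gave 11.24 against 12.53. Tex13b gave 6.22 against 8.19 (3.91-fold), Stk31, a testis kinase, 7.33 against 8.64, and the testis tubulin Tuba3a 10.79 against 12.25, where all 4 Tuba3a probes were lower, by 1.16 to 1.51. Other germ cell regulators differed less. Ddx4, the vasa helicase gene, was near the limit of detection, with 6.39 in Gcnf-deficient and 6.00 in wt PGCs, and so was Nanos3, with 5.94 and 5.74, an RNA-binding protein gene that PGCs need to survive. The member over 2-fold higher was Dazap1, which encodes a partner of Dazl made in many tissues, at 11.31 against 9.90.

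In the piRNA pathway, 10 of the 15 genes with a probe were measured, and 3 were over 2-fold lower and 0 higher, with a median of -0.20 once undetected sides are held at their limit. Asz1, a germ granule protein gene, gave 6.92 in Gcnf-deficient and 9.67 in wt day-15 PGCs (6.73-fold). Mov10l1, the helicase that feeds piRNA precursors to the pathway, gave 7.27 and 9.31 (4.13-fold), and Tdrkh, a Tudor domain protein gene, was undetected against 6.77 (at least 2.14-fold). Asz1 and Mov10l1 were lower by genotype at each stage, yet the wt day-15 signal was also the highest of the 6. Against the wt day-12 array 0 of 8 piRNA genes differed over 2-fold, Asz1 differed by -0.71 and Mov10l1 by 0.06. Other members were close at day 15, with Piwil2 at 8.22 and 8.65, Tdrd12 at 10.67 and 10.68, and Rnf17 at 6.66 and 6.88. Piwil1 was undetected in Gcnf-deficient PGCs and at 5.42 in wt, so that no fold could be given.

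Meiotic genes divided. Of 24 with a probe, 12 were measured, 5 over 2-fold lower and 1 over 2-fold higher, and against the wt day-12 array 1 of 12 was lower and 0 higher. Stra8, which commits germ cells to meiosis under retinoic acid, gave 8.12 in Gcnf-deficient and 10.42 in wt day-15 PGCs (4.90-fold lower). It was lower on day 12 as well, with 6.43 and 8.75, but higher in Gcnf-deficient ESCs, with 10.14 against 7.47. Within wt cells Stra8 was thus higher on each later stage, and within Gcnf-deficient cells the ESCs were highest. Rad51c, for recombination, gave 8.39 and 10.04 (3.13-fold), and Tex11, for crossing over, 7.40 and 8.87 (2.77-fold). The cohesin genes Smc1b and Rec8 gave 10.61 and 9.03 in Gcnf-deficient against 11.76 and 10.13 in wt PGCs. In the opposite direction, Syce2, of the central element of the synaptonemal complex, gave 9.50 and 7.70 (3.49-fold higher). For Rad51c the wt day-15 array stood alone, with 8.39 to 8.69 on the other 5 ESC and PGC arrays. Sycp3, the axial element gene often used to mark meiosis, was undetected on both day-15 arrays.

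The promoters of 5 germ cell genes with large differences are printed to show what lies before their starts, as 250 bases up to the RefSeq start, 5′ to 3′ on the strand of the gene, in GRCm38.p6. They lie at chr17:50293621-50293870 (Dazl, minus strand), chrX:134476491-134476740 (Taf7l, minus), chr6:18109062-18109311 (Asz1, minus), chr15:88982744-88982993 (Mov10l1, plus) and chr6:34920698-34920947 (Stra8, plus). Capitals mark an E-box (CACGTG) or the nuclear receptor half-site (AGGTCA).
Dazl: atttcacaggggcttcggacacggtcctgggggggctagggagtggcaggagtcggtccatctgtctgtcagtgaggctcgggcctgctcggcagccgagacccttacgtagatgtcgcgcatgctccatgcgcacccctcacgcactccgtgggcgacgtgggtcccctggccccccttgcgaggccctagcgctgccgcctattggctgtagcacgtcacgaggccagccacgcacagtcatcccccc
Taf7l: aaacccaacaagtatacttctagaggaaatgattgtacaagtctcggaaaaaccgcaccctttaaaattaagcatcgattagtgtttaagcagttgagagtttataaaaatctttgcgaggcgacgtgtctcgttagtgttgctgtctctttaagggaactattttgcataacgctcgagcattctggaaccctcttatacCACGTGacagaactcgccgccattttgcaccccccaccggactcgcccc
Asz1: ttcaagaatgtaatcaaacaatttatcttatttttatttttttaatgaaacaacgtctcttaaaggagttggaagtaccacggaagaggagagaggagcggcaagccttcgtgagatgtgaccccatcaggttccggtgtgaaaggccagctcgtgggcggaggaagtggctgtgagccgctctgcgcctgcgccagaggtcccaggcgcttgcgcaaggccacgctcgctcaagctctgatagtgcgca
Mov10l1: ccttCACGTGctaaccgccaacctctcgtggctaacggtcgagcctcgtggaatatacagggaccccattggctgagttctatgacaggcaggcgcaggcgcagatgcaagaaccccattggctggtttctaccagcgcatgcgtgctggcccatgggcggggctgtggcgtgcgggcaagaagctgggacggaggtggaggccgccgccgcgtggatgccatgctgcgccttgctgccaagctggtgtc
Stra8: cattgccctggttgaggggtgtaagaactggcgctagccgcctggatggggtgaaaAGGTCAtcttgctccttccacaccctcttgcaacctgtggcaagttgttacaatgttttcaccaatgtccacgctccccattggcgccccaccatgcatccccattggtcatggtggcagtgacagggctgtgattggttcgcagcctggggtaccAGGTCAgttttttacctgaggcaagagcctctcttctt

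Dazl had 20 CG pairs in these 250 bases, Mov10l1 19, Asz1 15, Taf7l 14 and Stra8 5. In Stra8 the half-site stood 194 and 38 bases before the start, and in Taf7l and Mov10l1 the E-box stood 49 and 246 bases before it. Dazl and Asz1 held neither. The motifs were searched on both strands of a window from 250 bases before to 50 after each start. Promoters on chromosome 18, such as those of Egr1 and Spink1, were not searched and are not in the counts. The half-site was found in 18.1% of 27025 promoters, in 14.5% of 6673 genes of the day-15 comparison, in 6 of 31 genes over 4-fold lower and in 30 of 138 over 4-fold higher. Among the 17 germ cell, piRNA and meiosis genes over 2-fold lower, 14 had a promoter, and the half-site was in 1 of these, Stra8. The half-site repeated directly with no gap (DR0, the arrangement GCNF binds), searched only as an exact repeat of these letters, stood in 1 of the 27025 promoters and in none of the 6673 genes of the comparison. The extended form TCAAGGTCA, which contains the half-site, was in 126 promoters (0.466%) and in none of the genes over 4-fold apart. The E-box was in 8.09% of all promoters, 12.3% of the genes of the comparison and 3 of the 14 germ cell genes (Mov10l1, Stk31, Taf7l). The E2F-type hexamer GCGGGA was in 22.0%, 41.4% and 4 of 14 (Rad51c, Rec8, Smc1b, Tuba3a). These matches are descriptions of letters in a window. Bound elements can depart from the exact repeat, so its absence says nothing of GCNF binding: the Pou5f1 promoter, a known GCNF target, held 1 exact half-site 33 bases before the start and no exact repeat.

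**Figure D2:**
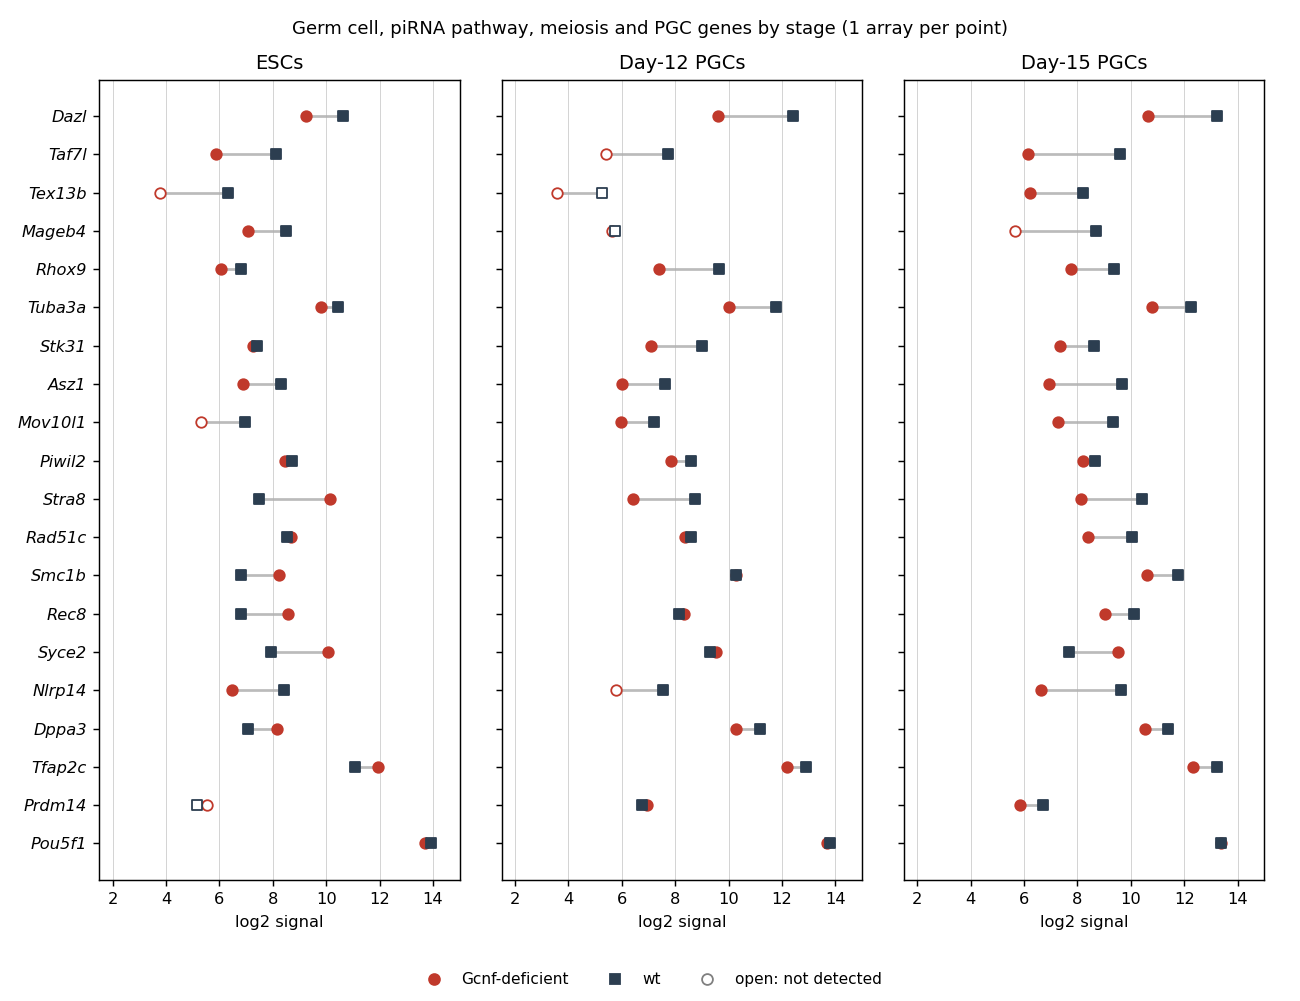
Signals (log2, horizontal axis) of germ cell genes in 3 panels for ESCs, day-12 PGCs and day-15 PGCs, with 1 row per gene, circles for Gcnf-deficient and squares for wt arrays, and open marks for undetected signals. Dazl and Taf7l are below wt at all 3 stages in Gcnf-deficient cells, and Stra8 is above wt in ESCs (10.14 against 7.47) and below it on day 15 (8.12 against 10.42).

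Against the wt day-15 array, genes of PGC specification were less often over 2-fold lower than germ cell regulators, piRNA or meiotic genes. Of 15 with a probe, 13 were measured, with 1 over 2-fold higher and 1 over 2-fold lower, which is near the share in all genes. Their median, with undetected sides held at their limit, was -0.30, against -0.20 for the piRNA list. Against the wt day-12 array 2 of 11 were over 2-fold lower and 0 higher, where 0 of 8 piRNA genes differed. Tfap2c, an AP-2 factor downstream of the specification signal, gave 12.32 in Gcnf-deficient and 13.22 in wt day-15 PGCs. Dppa3 (Stella), an early PGC marker, gave 10.52 and 11.38, and Prdm14, a factor that restores pluripotency genes in PGCs, 5.84 and 6.70. The alkaline phosphatase gene Alpl gave 10.93 and 11.84. Bmp4, the signal for specification, was undetected against 6.69 (at least 2.02-fold lower). The member over 2-fold higher was Ifitm1 (Fragilis2), a membrane protein gene, with 11.32 against 9.31 (4.05-fold), and Ifitm3 (Fragilis) gave 12.90 and 12.43. Sall4 (12.90 and 13.20), Dnd1 (9.16 and 8.60) and Nanos3 stayed within 2-fold.

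Of oocyte genes, 8 of 23 with a probe were measured, 2 over 2-fold higher and 1 lower. Nlrp14, an NLR family gene of oocytes and testis, gave 6.64 in Gcnf-deficient and 9.62 in wt PGCs (7.89-fold lower). It was lower in ESCs (6.47 and 8.42) and undetected against 7.55 on day 12. Those over 2-fold higher were Ooep, of the subcortical maternal complex, at 14.15 and 12.71, and the oligoadenylate synthetase Oas1d at 6.55 and 5.39. Of spermatid genes only Ldhc, the testis lactate dehydrogenase gene, was measured, at 9.25 and 8.99. Other reduced genes among the 12 largest had no place in the lists. Tlr2, a toll-like receptor gene, gave 6.62 and 9.68 (8.36-fold), the guidance cue Slit2 7.19 and 10.24 (8.24-fold), the muscle actinin Actn2 7.07 and 9.78 (6.56-fold). B3galnt1, which makes the glycolipid globoside, was undetected against 8.61 (at least 7.67-fold) and Gm15107 undetected against 8.31 (at least 6.21-fold).

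On the higher side, Pou5f1 and Nanog stayed close while several other genes of the pluripotency network, Sox2 among them, were higher. Of 21 pluripotency genes with a probe, 20 were measured, 8 over 2-fold higher and 0 over 2-fold lower, with a median of 0.21. Against the wt day-12 array 1 of 20 was over 2-fold higher and 0 lower. Pou5f1 (Oct4) gave 13.36 in Gcnf-deficient and 13.39 in wt day-15 PGCs, Nanog 13.70 and 13.86, Esrrb 13.17 and 13.50, Zfp42 (Rex1) 12.48 and 12.80, and Klf2 12.85 and 12.86, all within 2-fold. Tdgf1 (Cripto), the co-receptor of Nodal, gave 10.96 and 7.17 (13.8-fold higher), and both of its probes were higher, by 3.79 and 3.53. Lin28a, which blocks let-7 microRNAs, gave 9.88 and 6.55 (10.1-fold higher), with probes higher by 3.33 and 2.12. The other wt arrays were closer to the Gcnf-deficient value: Tdgf1 was at 8.49 in wt ESCs and 10.44 in wt day-12 PGCs, and Lin28a at 10.13 and 9.85. Set against wt day 12, Tdgf1 differed by 0.52 and Lin28a by 0.03. The other 6 were Utf1 (12.15 and 10.49), Sox2 (11.10 and 9.65), Klf4 (11.13 and 9.68), the growth factor Fgf4 (9.10 and 7.76), Tbx3 (10.85 and 9.62) and Gdf3 (11.67 and 10.49). Fgf4 was the member still over 2-fold higher against wt day 12, at 7.16. The probes of Sox2 disagreed, with 1.45 in the brighter and 0.10 in the other, whereas the 3 probes of Klf4 gave 1.45, 1.19 and 1.07.

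The let-7 axis beyond Lin28a showed no common direction, with 2 of 11 measured genes over 2-fold higher and 1 lower. Cyclin D1 (Ccnd1) gave 11.35 in Gcnf-deficient and 9.84 in wt PGCs, and Tgfbr1, a receptor of TGF-β, 9.91 and 11.38, although another probe of each gave the opposite sign, -0.14 for Ccnd1 and 0.88 for Tgfbr1. Dicer1, the microRNA processing enzyme gene, gave 8.83 and 9.56.

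Of genes that mark primed epiblast, 7 of 15 with a probe were measured, 5 over 2-fold higher and 1 lower, against 2 higher and 4 lower of 11 when set against wt day 12. Otx2, a homeobox factor of the epiblast, gave 11.70 in Gcnf-deficient and 9.87 in wt day-15 PGCs, and 11.70 and 8.46 in ESCs. Cldn6, a tight junction gene, gave 9.81 and 8.16, the methyltransferase Dnmt3b 11.74 and 10.50, and Pou3f1 (Oct6) 8.37 and 7.22. Zic2 was the lower member, at 7.41 and 8.42. Dnmt3b was at 12.84 to 13.06 on all 4 day-12 and ESC arrays, above both day-15 arrays.

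Nodal and BMP signalling had 21 of 26 genes measured, 6 over 2-fold higher and 2 lower, against 0 higher and 3 lower with wt day 12. The ligand Nodal itself gave 10.93 in Gcnf-deficient and 10.07 in wt PGCs, and its inhibitor Lefty1 11.64 and 10.15. Lefty1 lay the other way on day 12, at 10.85 and 12.02. The Id genes, early targets of BMP that block differentiation factors, were undetected in wt day-15 PGCs for Id2 (7.72, at least 5.05-fold higher) and Id4 (7.39, at least 4.04-fold), and Id1 gave 7.03 and 5.39. In wt day-12 PGCs Id2 was at 8.02 and Id4 at 7.06. The signal transducer Smad2 was lower, at 7.56 and 8.85, as it was on day 12 (7.22 and 8.54) and in ESCs (7.97 and 9.03). In the Wnt pathway 13 of 26 genes were measured, 1 over 2-fold higher and 1 lower. Lrp6, a Wnt co-receptor, was undetected on all 3 Gcnf-deficient arrays and gave 7.14, 7.30 and 8.00 on the wt arrays of ESCs, day 12 and day 15, at least 5.04-fold lower on day 15. Lrp5, its paralog, was 6.59 in Gcnf-deficient PGCs and undetected in wt (at least 2.31-fold higher), and β-catenin (Ctnnb1) was 13.49 and 14.29. Against wt day 12 the Wnt list had 7 of 15 over 2-fold lower.

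The largest higher values belonged to genes undetected on the wt array. Olig1, an oligodendrocyte transcription factor gene, was at 11.78 in Gcnf-deficient day-15 PGCs, at least 84.7-fold higher, and was undetected on the wt arrays of every stage. Emb (embigin, a chaperone of a lactate transporter) was at 11.72 (at least 80.9-fold) and Thumpd1, an RNA acetylation adaptor gene, at 10.55 (at least 36.0-fold). Emb and Thumpd1 were detected in wt day-12 PGCs, at 11.06 and 10.19, and against that array they differed by 0.66 and 0.36. Ppp1r14a, an inhibitor of myosin phosphatase, was at 10.22 (at least 28.7-fold higher). Erich5 gave 11.35 and 7.17 (18.0-fold) and differed by -0.21 against wt day 12.

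**Figure D3:**
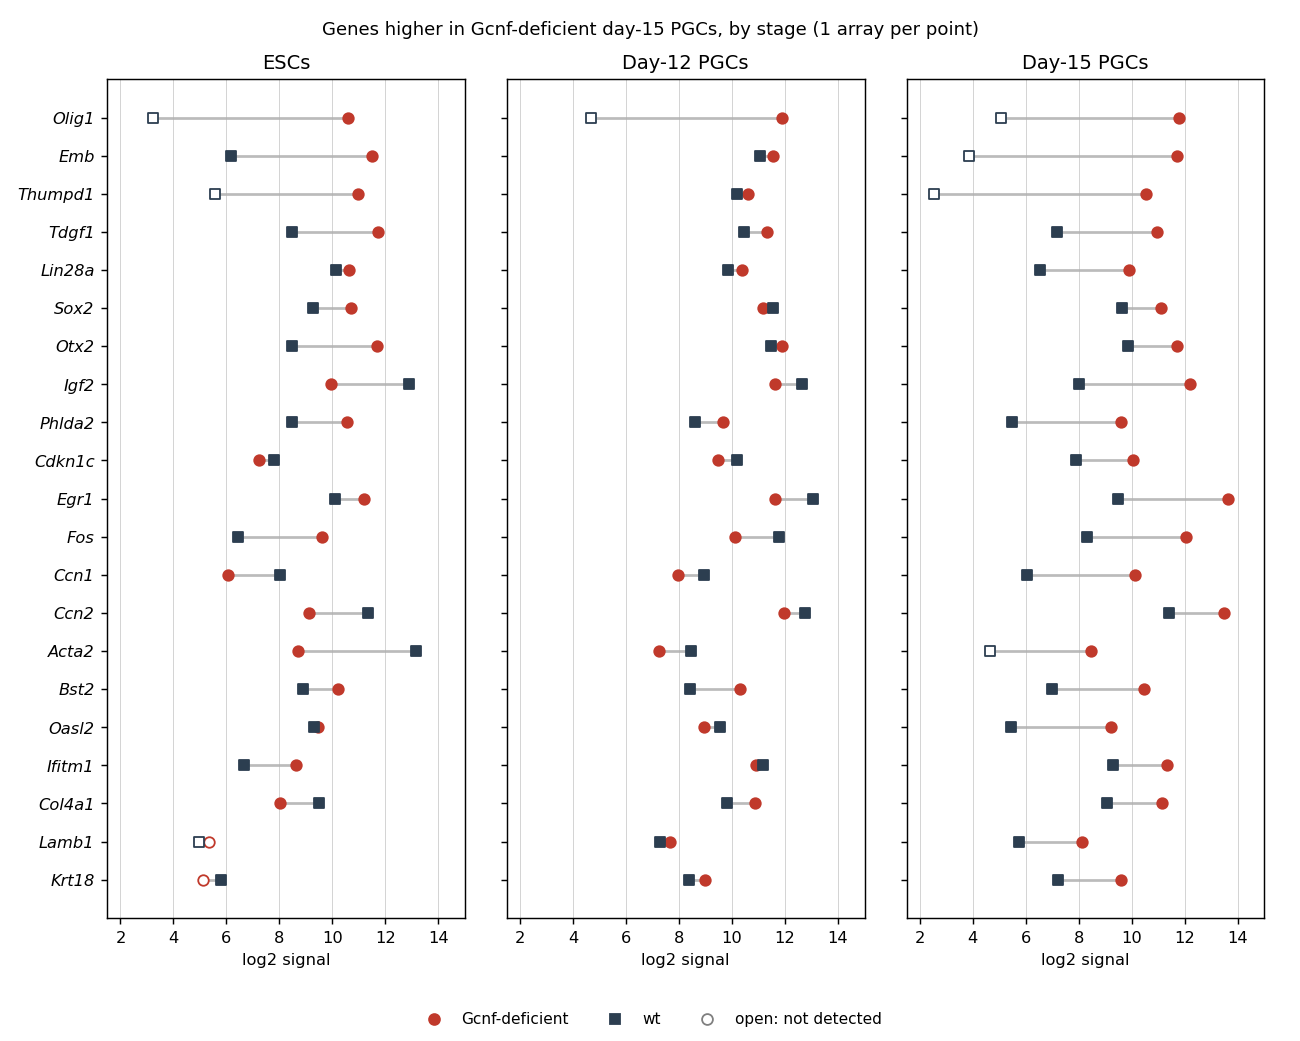
Signals (log2, horizontal axis) of genes higher in Gcnf-deficient day-15 PGCs, in 3 panels for ESCs, day-12 PGCs and day-15 PGCs, with 1 row per gene, circles for Gcnf-deficient and squares for wt arrays, and open marks for undetected signals. Olig1 is detected in Gcnf-deficient cells at all 3 stages and in wt cells at none, while Lin28a is low on the wt day-15 array (6.55) and at 9.85 or above on the other 5.

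Imprinted genes had 15 of 25 with a probe measured, 4 over 2-fold higher and 1 lower, and 0 and 3 against wt day 12. Igf2, the fetal growth factor expressed from the paternal allele, gave 12.21 in Gcnf-deficient and 8.02 in wt PGCs (18.3-fold higher), but 11.63 and 12.63 on day 12 and 9.96 and 12.87 in ESCs. Phlda2, a growth-restraining gene of the placenta, gave 9.58 and 5.48 (17.1-fold), Cdkn1c (p57), a cell cycle inhibitor, 10.04 and 7.88 (4.44-fold), and Mest 10.52 and 8.69, with its 3 probes higher by 1.83, 1.02 and 0.77. Impact, a regulator of translation, was the lower member at 10.39 and 12.08, and lower at each stage, with 10.34 and 11.98 on day 12 and 9.79 and 11.41 in ESCs. Snrpn (12.99 and 13.69), Igf2r (9.09 and 9.53) and Grb10 (7.80 and 7.77) were within 2-fold.

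Immediate early genes, switched on within minutes by growth factors or stress, had 15 of 24 measured, 8 over 2-fold higher and 0 lower, with a median of 1.12 with undetected sides at their limit. Egr1 gave 13.62 in Gcnf-deficient and 9.48 in wt day-15 PGCs (17.6-fold) and Fos 12.05 and 8.33 (13.2-fold). Both lay the other way on day 12, with 11.63 and 13.07 for Egr1 and 10.13 and 11.78 for Fos. Gadd45g gave 9.93 and 7.62 (4.95-fold), Ier3 9.89 and 8.23 and Junb 7.80 and 6.31. Against wt day 12, 1 of 15 was higher and 1 lower. The actin and mechanical response list had 18 of 22 measured, 10 over 2-fold higher and 0 lower. Ccn1 (Cyr61) and Ccn2 (Ctgf), matricellular targets of YAP and SRF, gave 10.11 and 13.48 in Gcnf-deficient against 6.04 and 11.40 in wt PGCs, 16.8-fold and 4.22-fold higher. All 3 Ccn1 probes were higher, by 4.07, 4.69 and 3.01. Smooth muscle actin (Acta2) was at 8.45 and undetected in wt (at least 8.40-fold higher), and the galectin Lgals1 gave 8.77 and 6.80. With wt day 12 in place of day 15, 1 of 18 was over 2-fold higher and 0 lower, and Acta2 differed by 0.01. All immediate early and actin genes named here except Acta2 were in the shortest group by span, where 31.8% were over 2-fold higher. The part of gene length in the counts of these lists was not tested.

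Interferon and MHC class I genes had 14 of 22 measured, 6 over 2-fold higher and 1 lower, and 1 and 0 against wt day 12. Oasl2, an interferon-induced gene, gave 9.20 in Gcnf-deficient and 5.46 in wt PGCs (13.4-fold), with 9.55 in wt day-12 PGCs. Bst2 (tetherin), which holds enveloped virus at the cell surface, gave 10.46 and 6.98 (11.1-fold), and was also higher on day 12, at 10.28 and 8.41, and in ESCs, at 10.21 and 8.89. The light chain B2m gave 10.01 and 8.83. The signal transducer Stat2 was lower, at 6.00 and 7.07.

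Endoderm genes had 16 of 21 measured, 7 over 2-fold higher and 2 lower, and 1 and 1 of 13 against wt day 12. Spink1, a trypsin inhibitor gene, was at 8.55 (at least 3.17 higher in log2), Srgn, a proteoglycan, at 7.40 and the transthyretin gene Ttr at 7.11 in Gcnf-deficient PGCs, all undetected in wt day-15 PGCs and at 7.68, 6.33 and 6.46 in wt day-12 PGCs. Apoe, a lipid carrier, gave 11.55 and 10.23. Gata6, a primitive endoderm factor, gave 8.21 and 8.97, and Sox17 6.05 and undetected. The lower members were Foxa1, a pioneer factor of definitive endoderm, undetected in Gcnf-deficient PGCs and at 8.24 in wt (at least 5.95-fold), and Rhox5. Foxa1 was undetected on the 4 ESC and day-12 arrays.

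All 17 basement membrane genes with a probe were measured, 5 over 2-fold higher and 0 lower, and 4 and 1 against wt day 12. The collagen IV chains Col4a1 and Col4a2 gave 11.16 and 10.42 in Gcnf-deficient against 9.05 and 8.25 in wt PGCs, 4.31-fold and 4.52-fold higher, and they were higher on day 12 too, at 10.88 and 9.71 against 9.82 and 8.57. In ESCs both lay the other way, at 8.01 and 6.67 against 9.51 and 9.46. The laminin chain Lamb1 gave 8.12 and 5.75 (5.17-fold) and perlecan (Hspg2) 10.74 and 9.44. Lamc1 (11.19 and 11.31), Nid1 (9.75 and 9.71) and agrin (Agrn, 13.41 and 13.51) were close. The keratins of simple epithelia, Krt8 and Krt18, gave 10.42 and 9.59 in Gcnf-deficient against 8.30 and 7.21 in wt PGCs, and 10.28 and 8.98 against 10.80 and 8.36 on day 12. They were the 2 genes over 2-fold higher of 10 measured in the keratin and trophoblast list.

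**Figure D4:**
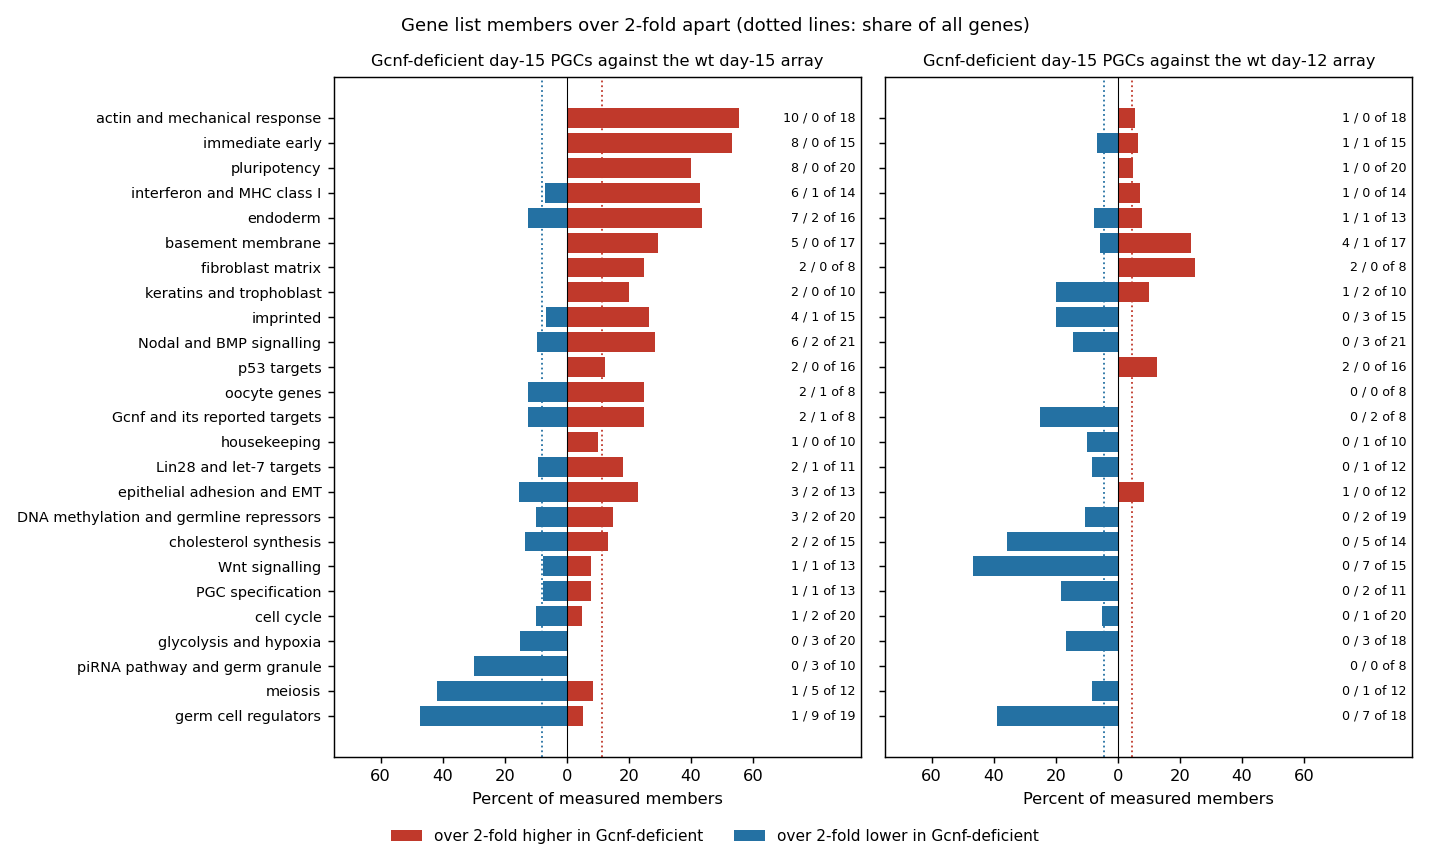
Percent of the measured members of each gene list (rows, lists with 8 or more measured) that were over 2-fold higher (bars to the right) or lower (bars to the left) in Gcnf-deficient day-15 PGCs, relative to the wt day-15 array in the first panel and to the wt day-12 array in the other. Counts are written as higher / lower of measured, dotted lines mark the share of all genes, and germ cell regulators have the longest lower bar in the first panel (9 of 19) while actin genes have the longest higher bar (10 of 18).

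Chromatin genes differed little as a list, with 3 of 20 measured over 2-fold higher and 2 lower. Dnmt3l, the cofactor of de novo methylation in germ cells, gave 13.81 in Gcnf-deficient and 12.00 in wt PGCs, while Suz12 (13.39 and 13.97), Uhrf1 (13.21 and 13.18) and Trim28 (13.61 and 14.56) were within 2-fold. Ezh2, of the Polycomb complex, gave 9.58 and 10.94. The list of GCNF and reported targets had 8 genes measured, with Sox2 and Dnmt3b over 2-fold higher and the orphan receptor Nr2f1 undetected against 6.83 (at least 2.23-fold lower). The other Sox2 probe differed by 0.10. Against the wt day-12 array 0 of 8 were over 2-fold higher and 2 lower. On that array Sox2 was at 11.53 and Dnmt3b at 12.86, above their Gcnf-deficient day-15 signals of 11.10 and 11.74. Cell cycle genes had 1 of 20 over 2-fold higher and 2 lower, and a median of -0.45. The helicase subunit Mcm6 gave 12.51 and 13.80, topoisomerase Top2a 12.49 and 13.75, and Pcna 9.93 and 8.73, and another Mcm6 probe differed by 0.01. Targets of p53 had 2 of 16 higher and 0 lower, Pmaip1 (Noxa, 9.74 and 7.99) and Plk2 (9.04 and 7.91), with Cdkn1a (p21) at 11.24 and 10.99. Glycolysis had 0 of 20 higher and 3 lower. The glycogen phosphorylase Pygl gave 8.63 and 11.37 (6.67-fold lower), with probes lower by 2.74 and 1.60, Pfkp 10.13 and 11.76, and hexokinase 2 (Hk2) 11.94 and 13.25. In ESCs 11 of 18 of these genes were over 2-fold higher in Gcnf-deficient cells and 0 lower. Housekeeping genes had 1 of 10 over 2-fold higher, B2m, with Actb at 13.42 and 13.52 and Gapdh at 15.02 and 15.30.

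The remaining lists were split or thinly measured. Epithelial adhesion genes had 3 of 13 over 2-fold higher and 2 lower. The tight junction scaffold Tjp1 gave 9.49 in Gcnf-deficient and 7.57 in wt PGCs, and the mesenchymal factor Zeb1 7.82 and 9.39. Cholesterol synthesis had 2 of 15 higher and 2 lower, with the isomerase Idi1 at 7.63 and 5.80 and the demethylase Cyp51 at 8.00 and 9.44. Of 2-cell-like genes, which mark a rare state of ESCs, 5 were measured and Zscan4c was lower, at 9.28 and 10.57, and against wt day 12 5 of 6 were over 2-fold lower. Retinoic acid response genes had 0 of 7 higher and 1 lower, which was Stra8, while the receptor Rarg gave 6.91 and 6.89.

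The day-15 difference ran along with gene length, over a wider range than in the other pairs. Genes detected on both day-15 arrays numbered 7045, of which 813 (11.5%) were over 2-fold higher and 555 (7.88%) over 2-fold lower in Gcnf-deficient PGCs. A genomic span, introns included, was found for 7040 of these in GRCm38.p6, and they were divided into 10 groups of 704 by span. The median difference was 0.58 in the shortest group (up to 4.25 kb) and -0.32 in the longest (from 97.0 kb), with no step back between them. In the shortest group 224 genes (31.8%) were over 2-fold higher and 19 (2.70%) lower, against 39 (5.54%) and 86 (12.2%) in the longest. On day 12 the medians of the shortest and longest groups were 0.05 and -0.09, in ESCs 0.03 and 0.01, and in the EpiSC pair -0.03 and 0.04. The Gcnf-deficient day-15 array minus the mean of 4 arrays (ESCs and day 12) had medians of 0.06 and 0.15 in the shortest and longest groups. The wt day-15 array minus the mean of the other 5 arrays had -0.52 and 0.42. The gradient therefore lay in the wt day-15 array, and its part in the differences above was not tested.

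**Figure D5:**
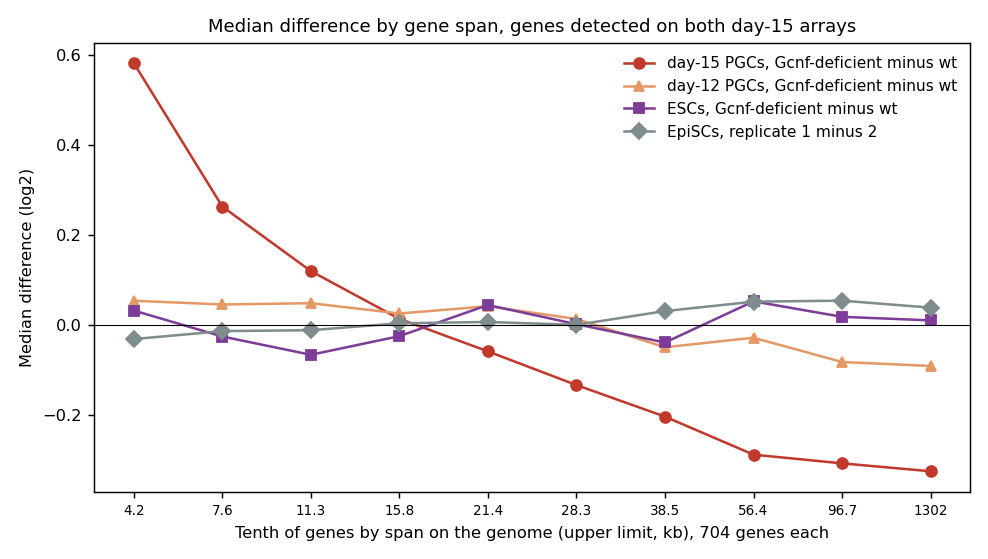
Median difference (log2, vertical axis) of genes detected on both arrays, in 10 groups of 704 genes by genomic span, shortest to longest (horizontal axis), for the Gcnf-deficient minus wt pairs of day 15, day 12 and ESCs and for the EpiSC pair. The day-15 line runs from 0.58 to -0.32 and the others stay near 0.

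Several families of short genes stood on the higher side. These families were gathered by symbol after the values had been seen. Of 23 histone genes detected on both day-15 arrays, 20 were over 2-fold higher and 0 lower in Gcnf-deficient PGCs, with a median of 1.86 and of -0.05 on day 12. H2ac21 gave 10.79 and 7.39 on day 15, 11.26 and 11.19 on day 12, and 11.03 and 9.51 in ESCs. Of 31 genes of complex I of the respiratory chain, 21 were over 2-fold higher and 0 lower, with a median of 1.47 (0.09 on day 12). Ndufb4 gave 9.48 and 5.83 on day 15 and 9.43 and 9.51 on day 12. Cytochrome c oxidase had 11 of 14 higher, led by Cox7b at 9.21 and 5.76, ATP synthase 7 of 14, and ribosomal proteins 19 of 56 in the cytosol and 24 of 67 in mitochondria, where 1 mitochondrial member was lower. In each of these families the median was above 0 on day 15 and under 0.25 on day 12. In ESCs it was 0.78 for histones, 0.38 for complex I, 0.28 for cytochrome c oxidase and 0.13 for ATP synthase. For ribosomal proteins it was 0.11 in the cytosol and -0.0007 in mitochondria. In Gcnf-deficient and wt ESCs Ndufb4 gave 9.41 and 7.86, and Cox7b 9.39 and 7.69.

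Relative to the median of genes of like span, 9 germ cell regulators were over 2-fold lower, as many as without this step. Dazl differed by -2.60, Taf7l by -3.40, Asz1 by -2.44, Stra8 by -2.23, Nlrp14 by -2.67, Tdgf1 by 3.53, Lin28a by 3.39 and Olig1 by 5.82. Pluripotency genes over 2-fold higher then numbered 5 in place of 8.

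Genes also differ in how they fared at the other stages. Of the 343 higher probes, 298 were detected on day 12, where 61 (20.5%) were over 2-fold higher too and 15 lower. In ESCs 276 were detected, with 137 (49.6%) over 2-fold the same way and 27 the other. Of the 192 lower probes, 83 were detected on day 12, where 60 (72.3%) were over 2-fold lower and 3 higher, and 104 in ESCs, with 58 (55.8%) lower and 11 higher. Over 2-fold the same way at all 3 stages were 36 higher and 31 lower probes. These comparisons share no array. The dimmer side was detected for 179 of the 343 and for 32 of the 192. Most lower probes were thus below detection in Gcnf-deficient PGCs. A probe counted as detected at a stage when either or both arrays detected it. A probe undetected in Gcnf-deficient cells of that stage thus entered only through the wt array, which favours a lower difference. The reverse holds for higher probes. The shares above therefore cannot be read as agreement between stages. Among all probes of these pairs, 5.12% were over 2-fold higher and 5.25% lower on day 12, and 10.4% and 8.93% in ESCs.

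Detection of markers of other cell types varied by list. Endoderm markers had 13 of 21 genes with a probe detected in Gcnf-deficient and 9 in wt day-15 PGCs, with summed linear signals of 7482 and 8638. This list also holds Rhox5, a germ cell regulator above, at 11.24 and 12.53 in log2 and a large part of both sums. The order of these sums therefore does not describe the other endoderm members. The keratin and trophoblast list, which also holds Tfap2c and Esrrb, had 9 and 8 of 19 detected and sums of 17049 and 22032. Fibroblast, gonadal somatic, mesoderm and neuroectoderm markers were less often detected. Of the fibroblast matrix list, 8 of 22 genes with a probe were detected in Gcnf-deficient and 7 in wt day-15 PGCs, with summed linear signals of 4214 and 3990, and Col1a1, Col1a2, Col3a1, Lum and Dcn were undetected on both. The same sums were 3639 in Gcnf-deficient and 22746 in wt ESCs, a sample type that the methods say was kept on feeder cells. Gonadal somatic markers had 1 of 19 detected on each day-15 array, with sums of 357 and 367, and Wt1, Nr5a1, Sox9, Amh and Foxl2 were undetected on both. Mesoderm markers had 4 and 3 of 18 detected and sums of 711 and 505. Neuroectoderm markers had 5 and 4 of 19 detected and sums of 8471 and 2214, of which Olig1 had the largest difference. Of the 6 measured, 3 were over 2-fold higher (Olig1, Otx2 and the glutamate transporter Slc1a3, at 7.13 and undetected in wt, at least 3.36-fold) and 2 lower. The lower ones were Zic2 and the filament gene Nes, undetected in Gcnf-deficient PGCs and at 7.66 in wt (at least 3.97-fold). The Y-linked gene Eif2s3y was undetected on both day-15 arrays and at 11.64 on the wt day-12 array alone, so the wt day-12 and day-15 arrays did not match in this gene. Uty, also Y-linked, was near the limit of detection, at 6.47 in Gcnf-deficient and 5.50 in wt day-15 PGCs and at 6.53 in wt day-12 PGCs. The values set against wt day 12 carry the Eif2s3y difference, and whether the wt day-12 and day-15 arrays came from the same line was not stated. The X chromosome had 214 genes detected on both arrays, 21 over 2-fold higher and 34 lower, with a median of -0.23, the lowest of the chromosomes, next to -0.23 on chromosome 6.

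Probes to the same gene gave a further measure of spread. Such probes can lie at different places in the transcript, so a gap between them is not error alone. For 1806 genes with a pair of probes detected on both day-15 arrays, the median gap between the probes' differences was 0.37, and 243 genes (13.5%) had probes over 2-fold apart. In the EpiSC pair the gap was 0.20 and 21 of 1698 genes (1.24%) were over 2-fold apart. Where the brighter probe was over 2-fold higher or lower on day 15 (282 genes), the other probe was over 2-fold the same way in 124 (44.0%) and had the opposite sign in 41. Hprt, a housekeeping gene, had its brighter probe at -0.79, within 2-fold, and its others at 0.75 and 0.58.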

How the data were processed

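The microarrays were Illumina MouseRef-8 v2 BeadChips with 25697 probes, hybridised with RNA of sorted day-15 PGCs, 1 array per genotype, and of the 6 other samples. Per the methods, labelled RNA was made from 300 ng of total RNA where possible, with 14 hr of transcription in vitro. Such amplification starts at the poly(A) end, so a signal depends on where the probe lies in its transcript. The authors read bead intensity with BeadStudio 3.2. Their deposited table without normalization holds these intensities and a detection p-value per probe and array. The deposited value table holds log2 values after the authors' RMA background correction and quantile normalization in lumi. No counts of molecules exist for arrays, and the single array a side limits the precision.

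The deposited intensities were processed by the same steps (RMA background model, log2, quantile normalization over 8 arrays) with R 4.3.3 and limma 3.58.1, and summarised with Python 3.11.15, pandas 2.3.3 and numpy 2.4.6. The outcome correlated at r = 0.998 with the deposited values, and the normalization was checked on simulated data. Probes had 1 symbol in 23978 cases and none in 1719, and the probe with the highest mean signal stood for a gene. Groups followed the sample titles. Differences are Gcnf-deficient minus wt. The 33 gene lists and the genes to name were chosen with earlier results of these data known. Named genes are the markers, genes labelled in the study's scatter plot, the 12 largest differences each way, every list member over 4-fold apart, and at most 4 more per list. A few others appear beside them as list members and were chosen after their values were seen. Promoters and spans came from RefSeq. Alternatives covered background correction, normalization, the filter, the fold limit and the choice of probe.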

Additional observations from a re-analysis of the deposited data

Results flagged for a closer look

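Differences that ran over 2-fold one way on day 15 and over 2-fold the other way in ESCs or on day 12 are listed here. They are values of single arrays, and the difference between stages was not tested.

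Against ESCs, genes lower in Gcnf-deficient day-15 PGCs but higher in Gcnf-deficient ESCs were Stra8 (2.66 in ESCs, in log2), Pygl (at least 2.35), Pfkp (1.58), Smc1b (1.45), Nsdhl (1.12) and Stat2 (1.05). Genes higher on day 15 but lower in Gcnf-deficient ESCs were more numerous. Several belonged to the actin, matrix and fibroblast lists: Acta2 (-4.44), Col4a2 (-2.79), Thy1 (-2.42), Lgals1 (-2.36), Ccn2 (-2.23), Ccn1 (-1.95), S100a6 (-1.91), Col4a1 (-1.50) and Tpm2 (-1.25). The others were Igf2 (-2.92), Gadd45g (-2.08), B2m (-1.88), Mest (-1.66), Id1 (-1.55), Junb (-1.14), Krt8 (-1.10), Spink1 (-1.08) and Ccnd1 (-1.0025). The fibroblast matrix list as a whole had 0 of 18 genes over 2-fold higher and 15 lower in Gcnf-deficient ESCs, and its part in these differences was not tested.

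Against day 12, 6 genes higher on day 15 were over 2-fold lower in Gcnf-deficient day-12 PGCs: Fos (-1.65), Gadd45g (-1.51), Egr1 (-1.44), Acta2 (-1.18), Lefty1 (-1.17) and Igf2 (-1.0018). On day 15 their differences were 3.72, 2.31, 4.14, at least 3.07, 1.49 and 4.19.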

How the results depend on the processing

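No paired analysis was possible because each group of the day-15 comparison has 1 array and its differences come from no test. The 343 higher and 192 lower probes over 4-fold apart were 69 and 10 with no background correction, 97 and 18 with an offset of 50 (normexp), 207 and 60 with neqc, 179 and 32 for probes detected on both arrays, and 1563 and 1456 at the 2-fold limit. With 1 probe per gene the lower count was 126. Median scaling (303 and 222), day-15 arrays normalized alone (323 and 207), the deposited value table (324 and 130), no detection filter (378 and 231) and differences relative to genes of like span (288 and 155) stayed within 1.5 times. Median scaling moved the median of all probes to -0.18, against -0.10. Of the named genes over 2-fold apart, 0 changed sign under any of the other background corrections or normalizations. Their sizes were less stable. Of 117, those that moved by at least the EpiSC spread (0.26) were 83 with no background correction, 71 with the offset and 23 with neqc. They were 9 with median scaling, 2 with day-15 arrays alone, 0 with the deposited values and 79 relative to span. With another probe, 24 of 36 moved, 7 stayed and 5 changed sign.

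The span correction and the replacement arrays were chosen after seeing the data. With the wt day-12 array in place of wt day 15 the counts were 114 higher and 110 lower, and with the Gcnf-deficient day-12 array in place of its day-15 array 318 were lower. Pluripotency genes over 2-fold higher, 8 in the report, were 5 relative to span and 1 against wt day 12. Of 113 named genes, 25 changed sign against wt day 12: Igf2 (-0.42), Erich5 (-0.21), Oasl2 (-0.35), Actn2 (0.46), Mov10l1 (0.057), Id2 (-0.30), Car4 (-0.36), Krt8 (-0.38), Cdkn1c (-0.15), Tex13b (0.36), Smc1b (0.32), Sox2 (-0.43), Ccnd1 (-0.20), Dnmt3b (-1.12), Pou3f1 (-0.23), Lefty1 (-0.38), Lama1 (-0.22), Lgals1 (-0.37), S100a6 (-0.84), Vim (-0.33), Mest (-0.32), Pcna (-0.62), L3mbtl2 (-0.11), Esrp1 (-0.27) and Idi1 (-0.49). Of 114, 3 did with the Gcnf-deficient day-12 array: Bmp4 (0.54), Plk2 (-0.17) and Stat2 (0.080). Of 36 with another probe, 5 did with that probe: Ccnd1 (-0.14), Ifitm1 (-0.14), Insig1 (-0.15), Mcm6 (0.0098) and Tgfbr1 (0.88). The cause was not tested. Signals near the lowest detected level (5.67 on the Gcnf-deficient and 5.38 on the wt day-15 array, log2) limit what folds of dim genes can show.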
